A study of Homo sapiens with 20 samples.

Results

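Small nucleolar RNA (snoRNA) host genes are mostly long non-coding genes whose introns carry snoRNAs. The genes described here were chosen by name: every gene with the symbol SNHG followed by a number, together with GAS5, ZFAS1 and EPB41L4A-AS1. This rule gave 31 of the 57087 genes with a row in the deposited tables, and 28 of them held enough reads to be tested in every comparison. The remaining 3, SNHG18, SNHG27 and SNHG28, had at most 1, 6 and 5 estimated counts in any sample.

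RNA was sequenced from HEK293 cells, a human embryonic kidney line, either as mRNA or as chromatin-associated RNA, in 14 samples that have an abundance table. The mRNA samples were wild type HEK293T cells (wt, n = 3) and the HEK293 2B line carrying an inducible hairpin against DICER1 (shDicer, n = 3), both kept for 7 days in doxycycline at 3 µg/ml. Chromatin RNA (chr) came from HEK293 cells in duplicate: wt, the inducible lines shDicer and shAgo2 after 72 hours in doxycycline at 3 µg/ml, and cells transfected with a plasmid encoding a hairpin against DROSHA, labelled shDrosha. The other 6 samples of the series, of small RNA, were not analysed here.

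Each inducible knockdown is an integrated line set against unmodified cells. In mRNA both were kept in doxycycline, and the line and the hairpin cannot be told apart. In chromatin RNA a doxycycline treatment of wt is not stated, so that the line, the doxycycline and the hairpin cannot be told apart. One of the Dicer lines of the study also carries an inducible tagged Dicer. Nothing states that replicates were separate cultures, so p-values measure the spread between these samples, which may be technical. In bulk RNA, fewer cells expressing a gene and less RNA per cell cannot be told apart.

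snoRNAs guide the modification of ribosomal and other RNAs. Box C/D snoRNAs (SNORD) direct 2'-O-methylation with fibrillarin and box H/ACA snoRNAs (SNORA) direct pseudouridylation with dyskerin. Most human snoRNAs are not transcribed alone. They are cut from the introns of a host gene after splicing, while assembly factors load the core proteins. The spliced remainder of a host is often a short RNA that is read by ribosomes and removed by nonsense-mediated decay, and several hosts start with a 5' terminal oligopyrimidine (TOP) tract, a C followed by a run of C and T that links translation to growth signals. GAS5 (growth arrest-specific 5) is the best known of these genes, and its spliced RNA accumulates when growth stops.

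The targeted genes were read first as a check of the labels. DICER1 stood at 232 to 257 CPM (counts scaled to library size) in mRNA wt and 80.6 to 94.4 in mRNA shDicer. In chromatin RNA DICER1 was 119 and 124 CPM in wt against 107 and 108 in shDicer (log2 fold change -0.18, adjusted p = 0.166), and AGO2 was 240 and 255 CPM in wt against 162 and 160 in shAgo2, where DICER1 was higher than in wt, at 204 and 214 CPM. DROSHA was 146 and 153 CPM in wt against 166 and 148 in the samples labelled shDrosha, so it was not lower there. Chromatin RNA stands in for nascent RNA and cannot show whether the mature RNA or the protein of a target fell. The study gives qRT-PCR of steady-state DROSHA, DICER1 and AGO2 for its chromatin samples and calls its knockdowns successful by western blot. Total estimated counts were 10216430 to 17215978 in mRNA and 17484067 to 21553760 in chromatin RNA. Of 5 markers of the line, VIM was at 158 to 573 CPM in all samples, and PAX2 (0.08 to 0.27 CPM) and LHX1 (0 to 0.95 CPM) were near 0 in mRNA. NEFL rose (log2 fold change 4.77, 3.73 and 2.91) and NEFM fell (-3.94, -3.28 and -4.71) in mRNA shDicer, chromatin shDicer and chromatin shAgo2. Of 5 markers of other cell types, PTPRC, ALB, PECAM1 and COL1A1 stayed at or under 1.10 CPM in mRNA, and PECAM1 and COL1A1 were at 14.8 to 29.3 CPM in the chromatin groups, wt included. HBB was at 0 in mRNA wt, chromatin wt and the samples labelled shDrosha, at 9.01 to 11.9 CPM in mRNA shDicer and at 0.37 to 1.27 CPM in chromatin shDicer and shAgo2. The part of these marker differences in the results was not tested.

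The starts of the genes on which the results turn are shown here, because a TOP tract at the start is the sequence feature that this gene class is best known for. Each line gives 10 bases before and 20 bases from the RefSeq start (assembly GRCh38.p14), 5' to 3' on the gene's strand, and capitals mark a run that begins with C at the start itself and holds at least 5 C or T.
SNHG3, chr1:28505933-28505962 (+): gtgagtttctgattctctaactgcgcatgc
SNHG8, chr4:118278752-118278781 (+): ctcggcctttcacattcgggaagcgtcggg
SNHG12, chr1:28581854-28581883 (-): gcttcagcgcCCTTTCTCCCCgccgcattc
SNHG17, chr20:38435309-38435338 (-): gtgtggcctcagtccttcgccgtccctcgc
SNHG22, chr18:49814013-49814042 (+): tccgctgggcagaggcttgggccgccgagc
GAS5, chr1:173869026-173869055 (-): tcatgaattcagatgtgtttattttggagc
SNHG1, chr11:62855866-62855895 (-): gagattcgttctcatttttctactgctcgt
ZFAS1, chr20:49278632-49278661 (+): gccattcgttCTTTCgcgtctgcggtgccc

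A run of this kind stood at the RefSeq start of 7 of the 27 host genes with an entry (25.9%), against 4.07% of all 35116 entries and 16 of 30 protein-coding snoRNA hosts (53.3%). The 7 were SNHG4, SNHG5, SNHG12, SNHG18, SNHG19, SNHG32 and ZFAS1. Of the 5 genes called in mRNA shDicer, chromatin shDicer and chromatin shAgo2, described below, SNHG12 had the run and SNHG3, SNHG8, SNHG17 and SNHG22 did not. A RefSeq start is a single annotated position, and a window without the run says only that these letters are not there. It can differ from the GENCODE start of the gene. For GAS5 the positions were 173869045 in RefSeq and 173868882 in GENCODE, and for SNHG12 28581873 and 28583132.

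The 4 intronic snoRNAs shown next are the 3 with the largest called changes in mRNA shDicer and 1 of the U17 pair of SNHG3, which holds the most snoRNA counts. They were read from the GRCh38 genome at the annotated coordinates, and capitals mark the ACA near the 3' end of a SNORA, or the TGATGA (box C) and CTGA (box D) of a SNORD.
SNORA24 in SNHG8, chr4:118279190-118279320 (+): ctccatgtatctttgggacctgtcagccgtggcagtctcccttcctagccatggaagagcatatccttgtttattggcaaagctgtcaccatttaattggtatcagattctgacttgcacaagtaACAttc
SNORD12B in ZFAS1, chr20:49280319-49280409 (+): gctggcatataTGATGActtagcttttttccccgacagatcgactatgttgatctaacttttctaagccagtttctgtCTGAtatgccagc
SNORA61 in SNHG12, chr1:28579764-28579893 (-): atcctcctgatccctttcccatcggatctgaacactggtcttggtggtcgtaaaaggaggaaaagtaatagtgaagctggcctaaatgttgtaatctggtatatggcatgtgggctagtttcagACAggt
SNORA73B in SNHG3, chr1:28508559-28508762 (+): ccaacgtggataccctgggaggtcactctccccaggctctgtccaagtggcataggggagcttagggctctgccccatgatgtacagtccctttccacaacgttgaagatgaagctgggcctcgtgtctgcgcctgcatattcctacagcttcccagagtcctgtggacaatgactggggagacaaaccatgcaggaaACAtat

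The annotation placed 144 snoRNA entries inside the 31 hosts, 84 of them in SNHG14, the imprinted host of the Prader-Willi region on chromosome 15. It listed none inside GAS5, where RefSeq lists 11. ACA lay in the last 8 bases of 21 of 25 SNORA entries inside these hosts (84.0%) and of 176 of all 214 SNORA entries (82.2%). TGATGA in the first 20 bases together with CTGA in the last 15 was found in 90 of 110 SNORD entries inside the hosts (81.8%) and in 194 of all 313 (62.0%), on the annotated strand only.

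Levels were compared between genes per length, in TPM (transcript counts scaled by length and library) summed over the transcripts of a gene. In mRNA wt SNHG3 was the highest host gene per length, at 449, 485 and 454 TPM. Isoforms annotated as retained intron made up 95.1% of its TPM there but 63.6% of its counts (means). By CPM, which are not scaled by length, its mean in mRNA wt was 253, below SNHG16 (743), GAS5 (495), SNHG29 (367) and SNHG1 (358). In TPM, GAS5 followed SNHG3 at 321, 347 and 347, and no sample of GAS5 reached those of SNHG3. SNHG16 (217 to 240 TPM), SNHG29 (211 to 225 TPM) and SNHG5 (212 to 218 TPM) came next, and their samples overlapped one another.

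By the median over the 14 samples the order of the first 5 was SNHG3, SNHG29, GAS5, ZFAS1 and SNHG4. ZFAS1, a host of box C/D snoRNAs beside ZNFX1, was at 67.4 to 72.0 TPM in mRNA wt and at 132 and 138 in chromatin wt. SNHG4 was at 54.2 to 60.4 TPM in mRNA wt and at 156 and 156 in chromatin wt. The 5 lowest of the tested genes were SNHG10, SNHG9, SNHG32, SNHG21 and SNHG11, with group means between 2.22 and 15.1 TPM. This order pools both assays: in mRNA wt alone SNHG16 and SNHG5 stood above ZFAS1 and SNHG4, and SNHG14 and SNHG31 (0.08 to 0.56 TPM) were the lowest of the tested hosts. The 31 genes together took 2188 to 2326 TPM in mRNA wt, 1256 to 1594 in mRNA shDicer, 2517 to 2583 in chromatin wt, 1740 to 1913 in chromatin shDicer, 1771 to 1786 in shAgo2 and 2232 to 2342 in the samples labelled shDrosha. The sums of shDicer, shAgo2 and the samples labelled shDrosha thus lay below those of their wt without overlap.

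**Figure D1:**
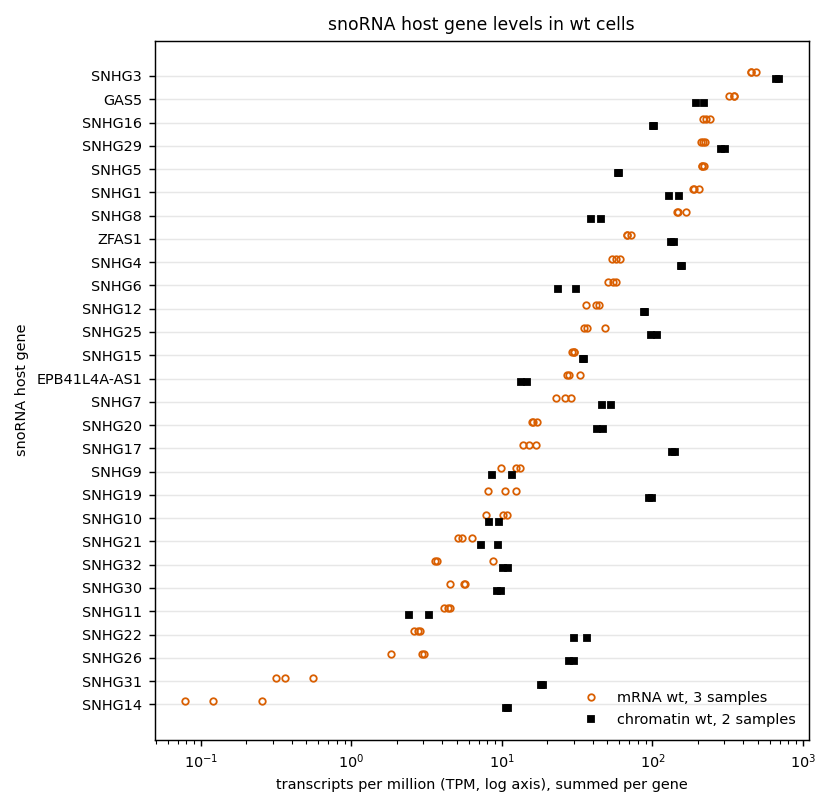
Level of the 28 tested snoRNA host genes in wild type cells, in TPM on a log axis, with 1 open circle for each of 3 mRNA samples and 1 filled square for each of 2 chromatin samples. SNHG3 is highest in both, and SNHG14 and SNHG31 lie at 0.08 to 0.56 TPM in mRNA but at 10.6 to 18.6 TPM in chromatin RNA.

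Next, chromatin RNA was compared with mRNA in wt cells, which asks which hosts are held more in the nascent or chromatin-bound pool. Over the 14826 genes that passed the filter on low counts in both assays, a set chosen after the data were seen, the snoRNA host genes lay near protein-coding genes and on the mRNA side of other lncRNA genes. Their median log2 ratio of -0.84 stood beside -0.89 for 12624 protein-coding genes, -0.64 for all genes and 1.42 for 1663 lncRNA genes. Of the 28 hosts, 24 had a smaller ratio than the lncRNA median, 14 a smaller one than the protein-coding median and 16 a smaller one than the median of all genes. In this set 30.97% of all genes were higher in chromatin RNA and 53.6% lower, against 64.0% and 15.0% of lncRNA genes.

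On the scale set by TMM normalization the log2 ratios ran from -3.05 (SNHG8) to 3.69 (SNHG31), in a fit of 28050 genes. Only 14826 of these passed the filter in both assays, and over all 28050 the median was 1.73, with 3.37 for lncRNA genes, so shares over all genes here are no like-for-like background for the hosts. At an adjusted p under 0.005, 7 of 28 hosts were higher in chromatin RNA, where 58.2% of all genes were, and 17 were lower, where 28.8% were. At 0.05 these were 7 (62.1% of all genes) and 18 (30.2%). Among lncRNA genes 84.9% were higher and 3.50% lower, and all 33 protein-coding snoRNA hosts were lower, with a median of -3.87. The zero of this scale rests on the normalization: with library size alone, added after the data were seen, the median of all genes moved from 1.73 to 3.33 and the hosts split into 17 higher and 6 lower. Assay, library kit, doxycycline and cell line differ together between these samples and cannot be told apart.

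The genes most on the mRNA side were SNHG8 (-3.05 ± 0.0861 SE, log2 ratio), SNHG16 (-2.88 ± 0.0746), SNHG6 (-2.75 ± 0.0991), SNHG5 (-2.71 ± 0.0674), GAS5 (-2.35 ± 0.0729) and SNHG1 (-2.01 ± 0.0790). In TPM, SNHG8 was at 145, 166 and 148 in mRNA wt and at 38.9 and 45.3 in chromatin wt. SNHG16, the host of the SNORD1 group, was at 226, 240 and 217 TPM against 101 and 103. GAS5 was at 321, 347 and 347 TPM against 196 and 221. All 3 were thus also lower in chromatin RNA as a share of all transcripts, with no overlap. EPB41L4A-AS1, the antisense host of SNORA13, had a log2 ratio of -1.39 ± 0.0845 and ZFAS1 of -0.69 ± 0.0699, and with library size alone both changed sign, to 0.23 and 0.93. Of the 11 hosts called lower beyond the first 6, SNHG32 lost its call without mRNA wt replicate 1 (-0.34, adjusted p = 0.0836) or either chromatin wt replicate (0.0343 and 0.0398), SNHG20 without either chromatin wt replicate (0.00578 and 0.0321) and SNHG9 without chromatin wt replicate 2 (0.0146).

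The genes most on the chromatin side were SNHG31 (3.69 ± 0.165) and SNHG14 (3.56 ± 0.183), followed by SNHG22 (1.68 ± 0.208), SNHG26 (1.44 ± 0.164), SNHG19 (1.17 ± 0.153) and SNHG17 (0.76 ± 0.0762). SNHG14 was at 0.08, 0.12 and 0.25 TPM in mRNA wt and at 11.0 and 10.6 TPM in chromatin wt. SNHG17, the host of the SNORA71 group, was at 13.9, 15.2 and 16.9 TPM in mRNA wt and at 142 and 134 in chromatin wt. Both were thus far higher in each chromatin sample. The last of the 7, SNHG3, was called higher (0.31 ± 0.0584, adjusted p = 8.81e-05) but turned to -1.67 when counts were scaled from TPM by length, and 16.3% of its 31-base words are shared with other genes, among them RCC1, which it overlaps.

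Isoforms with a retained intron were followed in the 9 hosts with such transcripts and a mean of at least 100 counts. The median share over the 9 hosts was 63.6% in mRNA wt and 69.9% in chromatin wt, against 3.94% and 22.7% over 5123 genes. By group means 93.1% of these genes had a larger share in chromatin RNA than in mRNA, and 6 of the 9 hosts did (66.7%). In these 6 hosts every chromatin sample lay above every mRNA sample, and the other 3 hosts had a smaller share.

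SNHG16 was the clearest case in the first direction, with 3.64, 3.74 and 4.19% of its counts in the retained-intron isoform in mRNA wt and 54.2 and 53.9% in chromatin wt. SNHG29 went from 31.9, 30.3 and 31.9% to 77.5 and 79.5%. GAS5 went the other way, from 88.3, 89.4 and 87.0% in mRNA wt to 69.2 and 70.7% in chromatin wt, as did SNHG17 (96.5 to 88.1%, means) and SNHG3 (63.6 to 56.9%, means). None of these groups overlapped. With 3 samples against 2 the exact two-sided permutation test cannot go below p = 0.1, which 8 of the 9 hosts reached, and SNHG3 gave p = 0.2. The split of reads between isoforms is an estimate of the authors' quantification, and a snoRNA within an isoform called retained-intron adds its own reads to it.

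Next, mRNA of shDicer cells was compared with wt, a comparison of steady-state RNA in which the line and the hairpin differ together. SNHG1, GAS5, SNHG12, SNHG3, SNHG8 and SNHG17 fell and SNHG22, SNHG7 and SNHG29 rose. These are 6 of 28 hosts lower (21.4%), against 14.2% of all 15090 genes tested and 6.57% of lncRNA genes, and 3 higher (10.7%), against 15.6% of all genes and 8.56% of lncRNA genes, at an adjusted p under 0.001. The hosts and these other genes were not matched by level, which bears on how often a gene is called. The median log2 fold change of the hosts was -0.22, against 0.01 for all genes. The other 19 tested hosts did not pass the test. At an adjusted p under 0.05 the hosts numbered 6 higher and 10 lower, against 29.7% and 27.7% of all genes.

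SNHG1, the host of the SNORD25 to SNORD31 group on chromosome 11, was at 368, 369 and 338 CPM in mRNA wt and at 135, 137 and 136 CPM in shDicer. GAS5 was at 491, 494 and 500 CPM against 198, 208 and 243. Both genes were far lower in every shDicer sample than in any wt sample. The log2 fold change was -1.39 ± 0.0675 (SE, adjusted p = 6.13e-08) for SNHG1 and -1.19 ± 0.0836 (adjusted p = 8.25e-07) for GAS5.

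SNHG12 went from 74.1, 79.2 and 86.6 CPM to 36.6, 31.3 and 36.3 (-1.20 ± 0.0957, adjusted p = 2.12e-06). SNHG3 went from 256, 246 and 256 CPM to 143, 141 and 144 (-0.82 ± 0.0631, adjusted p = 1.63e-06). SNHG8 went from 74.2, 74.7 and 73.2 CPM to 40.8, 42.2 and 47.2 (-0.77 ± 0.0832, adjusted p = 1.87e-05). SNHG17, at 50.1, 49.9 and 61.4 against 36.3, 34.0 and 33.7 CPM, showed the smallest of these changes (-0.63 ± 0.104, adjusted p = 0.000365), and again no samples overlapped. SNHG22, a host of the Cajal body RNA SCARNA17, rose from 1.62, 1.33 and 1.54 CPM to 6.58, 6.58 and 3.64 (1.88 ± 0.285, adjusted p = 0.000209). SNHG7 rose from 37.5, 38.3 and 37.3 CPM to 80.5, 61.5 and 57.6 (0.82 ± 0.122, adjusted p = 0.000192), and SNHG29 from 373, 368 and 361 CPM to 463, 499 and 510 (0.42 ± 0.0668, adjusted p = 0.000298).

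ZFAS1 (0.18 ± 0.0787, adjusted p = 0.0717) and EPB41L4A-AS1 (-0.21 ± 0.0945, adjusted p = 0.0755) did not pass. EPB41L4A-AS1 turned to 0.38 when counts were scaled from TPM by length. SNHG32 (1.60) and SNHG26 (-1.14) had changes larger than most but missed the threshold, at adjusted p = 0.00139 and 0.00327. The calls of GAS5, SNHG1, SNHG3 and SNHG8 held under every alternative run, over which the change of SNHG3 ran from -1.38 to -0.36. SNHG3 (28505980 to 28510892) and SNHG12 (28578538 to 28583132) lie close together on chromosome 1. Whether their changes are separate was not tested. SNHG17 lost its call without wt replicate 1, 2 or 3 or shDicer replicate 2 or 3 (adjusted p = 0.00104 to 0.00248), SNHG22 without wt replicate 1, 2 or 3 or shDicer replicate 2 (0.00128 to 0.00232), SNHG7 without wt replicate 1, 2 or 3 (0.00111 to 0.00326) and SNHG29 without wt replicate 2 or 3 or shDicer replicate 2 or 3 (0.0012 to 0.00378). SNHG12 and its 50 neighbouring genes fell together, with a neighbourhood median of -0.70, and against that median the change of SNHG12 was -0.50 (adjusted p = 0.00114). Against their own neighbourhoods SNHG17 (-0.31, adjusted p = 0.0288), SNHG22 (1.16, 0.00604), SNHG7 (0.45, 0.0093) and SNHG29 (0.23, 0.0144) also missed the threshold.

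The isoforms of GAS5 moved apart in mRNA. Its retained-intron isoforms summed to 433, 442 and 435 CPM in wt and 121, 130 and 156 CPM in shDicer, or 0.31 times the wt mean. Its other isoforms summed to 57.5, 52.6 and 65.2 CPM in wt and 76.8, 78.1 and 87.4 CPM in shDicer, or 1.38 times the wt mean. The fall of GAS5 in mRNA thus lay in counts assigned to isoforms annotated as retained intron. Its remaining isoforms were higher in each shDicer sample than in each wt sample. RefSeq lists 11 snoRNAs inside GAS5 and the annotation used lists none. Reads of these snoRNAs could not be followed on their own, so their loss cannot be told apart from a loss of these isoforms. In SNHG29 the retained-intron isoforms overlapped wt, at 0.95 times its mean, and the other isoforms were higher, at 1.51 times. Both parts were lower in SNHG1, at 0.35 and 0.46 times wt, and in SNHG3, at 0.46 and 0.74 times wt. The retained-intron share was below wt without overlap in 6 of the 9 hosts and above it in none. How many of the 5123 genes lay below wt without overlap was not counted. By group means 1 of the 9 hosts (11.1%) had a higher share in shDicer than in wt, and 27.4% of the 5123 genes did. A lower share was thus the more common direction over all genes too, with a median change of -0.56 points against -4.39 in the hosts. In chromatin RNA the same 2 parts of GAS5 were at 0.73 and 0.72 times wt in shDicer.

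In chromatin RNA, the proxy for nascent RNA, 6 hosts fell and 1 rose in shDicer, and 8 fell and 1 rose in shAgo2. SNHG3, SNHG8, SNHG12, SNHG17 and SNHG19 were lower in both lines and SNHG22 was higher in both. At an adjusted p under 0.005 the 6 lower of 28 (21.4%) in shDicer stood against 10.5% of all 32874 genes and 4.51% of lncRNA genes, and the 8 lower (28.6%) in shAgo2 against 12.1% of all genes and 5.72% of lncRNA genes. The 1 higher (3.57%) stood against 11.0% of all genes in shDicer and 12.5% in shAgo2. Here too the hosts and the other genes were not matched by level. The hosts' median log2 fold change was -0.23 in shDicer and -0.16 in shAgo2, with 0.01 and 0.00 for all genes. With a threshold of 0.05 the hosts numbered 1 higher and 12 lower in shDicer, against 19.1% and 18.6% of all genes, and 2 higher and 11 lower in shAgo2, against 20.9% and 20.2%. Both lines were compared with the same 2 wt samples, so the 2 comparisons are not independent.

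SNHG3, whose introns hold the U17 snoRNAs SNORA73A and SNORA73B, was at 1000 and 959 CPM in chromatin wt, 491 and 430 in shDicer and 338 and 353 in shAgo2. Its log2 fold change was -1.09 ± 0.0873 (adjusted p = 1.91e-06) in shDicer and -1.50 ± 0.0883 (adjusted p = 1.27e-07) in shAgo2. SNHG8, the host of SNORA24, was at 24.96 and 30.95 CPM in wt, 13.8 and 13.6 in shDicer and 11.4 and 9.39 in shAgo2. Its log2 fold change was -1.02 ± 0.203 (adjusted p = 0.0018) and -1.42 ± 0.209 (adjusted p = 0.000185). Each sample of both lines lay below each wt sample for these 2 genes.

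SNHG17 was at 288 and 282 CPM in wt, 195 and 169 in shDicer and 149 and 155 in shAgo2, with log2 fold changes of -0.64 ± 0.0830 (adjusted p = 7.95e-05) and -0.91 ± 0.0835 (adjusted p = 4.72e-06). SNHG12 was at 223 and 230 CPM in wt, 127 and 125 in shDicer and 129 and 122 in shAgo2, and changed by -0.85 ± 0.115 in both lines (adjusted p = 0.000116 and 9.31e-05). SNHG22 was at 16.3 and 13.8 CPM in wt, 32.2 and 34.4 in shDicer and 23.3 and 26.3 in shAgo2, and rose by 1.14 ± 0.112 (adjusted p = 9.8e-06) and 0.72 ± 0.114 (adjusted p = 0.000343). No sample of either line overlapped wt for these 3 genes.

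SNHG19, a short gene around SNORD60, was at 26.9 and 29.6 CPM in wt, 19.2 and 16.3 in shDicer and 16.9 and 14.6 in shAgo2 (-0.67 ± 0.151, adjusted p = 0.00409, and -0.84 ± 0.152, adjusted p = 0.00088). SNHG25 fell in shDicer (-0.61 ± 0.131, adjusted p = 0.00289) and was at -0.31 in shAgo2 (adjusted p = 0.0716). SNHG9 (-1.33 ± 0.272, adjusted p = 0.00196), SNHG26 (-0.75 ± 0.103, adjusted p = 0.000113) and SNHG7 (-0.34 ± 0.0768, adjusted p = 0.00405) fell in shAgo2 and missed the threshold in shDicer (adjusted p = 0.0349, 0.037 and 0.166). The difference between both lines was not tested.

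SNHG1 (-0.61, adjusted p = 0.00839, and -0.65, adjusted p = 0.00551) and GAS5 (-0.46, adjusted p = 0.0245, and -0.15, adjusted p = 0.431) did not pass in chromatin RNA, and neither did ZFAS1 (-0.23, adjusted p = 0.15, and 0.13, adjusted p = 0.424) or EPB41L4A-AS1 (-0.24, adjusted p = 0.174, and -0.06, adjusted p = 0.764). SNHG1 was at 253 and 303 CPM in wt, 174 and 190 in shDicer and 179 and 177 in shAgo2, and GAS5 at 280 and 329, 210 and 232, and 265 and 283. The shDicer samples lay below wt for both genes, and the shAgo2 samples did for SNHG1 but overlapped wt for GAS5.

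Calls held under every alternative for SNHG3 and SNHG17 in both lines, for SNHG22 in shDicer and for SNHG8 and SNHG26 in shAgo2. Without single libraries the call of SNHG8 in shDicer was lost (adjusted p = 0.0245 without wt replicate 2, 0.00926 and 0.0107 without shDicer replicate 1 or 2), as were those of SNHG19 in both lines (at least wt replicate 2 and either knockdown replicate, and in shDicer also wt replicate 1; adjusted p = 0.00506 to 0.0404), SNHG25 in shDicer (0.00733 to 0.0374; wt replicate 1 or 2, shDicer replicate 1), SNHG9 (0.0119 to 0.0278; wt replicate 1, shAgo2 replicate 1 or 2), SNHG7 (0.0159 to 0.0517; any library) and SNHG22 in shAgo2 (0.00838 without wt replicate 2, 0.00693 without shAgo2 replicate 2). The 50 genes around SNHG19 had median log2 fold changes of -0.58 and -0.76, those around SNHG9 -0.69 in shAgo2, those around SNHG12 -0.34 and -0.46, those around SNHG3 -0.44 and -0.51, and those around SNHG22 0.58 and 0.31. Against these neighbours SNHG19 was at -0.09 and -0.08 (adjusted p = 0.7 and 0.717), SNHG9 in shAgo2 at -0.64 (0.0895), SNHG12 at -0.51 and -0.39 (0.00518 and 0.0185) SNHG25 in shDicer at -0.43 (0.0248), SNHG22 in shAgo2 at 0.41 (0.0157) and SNHG7 in shAgo2 at 0.053 (0.63), while SNHG3 kept its call.

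**Figure D2:**
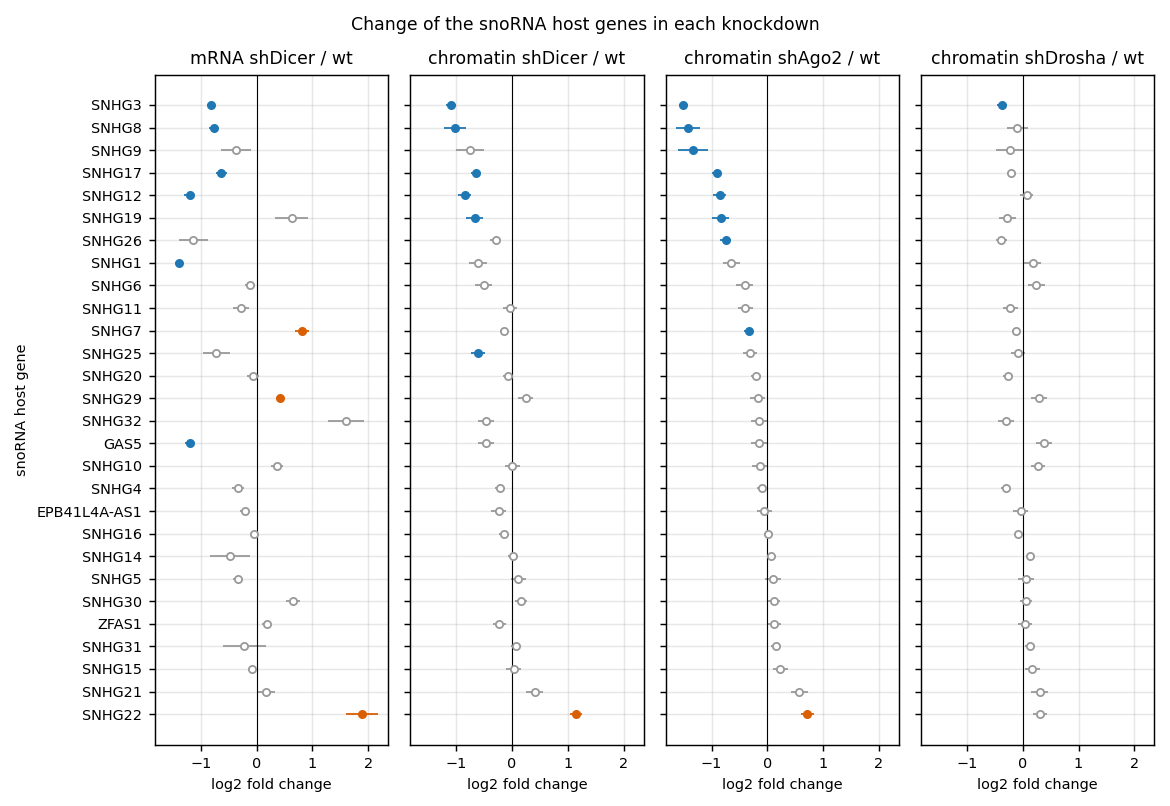
Log2 fold change against wt (points, bars ± SE) of the 28 tested host genes in the 4 knockdown comparisons, sorted by the change in chromatin shAgo2. Filled blue points are called lower, filled orange points higher and open grey points not called; SNHG3, SNHG8, SNHG17 and SNHG12 are lower and SNHG22 is higher in the first 3 panels, and SNHG3 alone is called in the shDrosha panel.

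In the samples labelled shDrosha SNHG3 was lower and no other host passed. SNHG3 was at 776 and 737 CPM against 1000 and 959 in wt (-0.37 ± 0.0863, adjusted p = 0.0385), without overlap. At an adjusted p under 0.05, 1 lower of 28 (3.57%) stood against 2.18% of all genes and 0 higher against 1.19%. At an adjusted p under 0.005 no host passed in either direction, against 0.176% of all genes lower and 0.0791% higher. At an unadjusted p under 0.05, 2 of 28 hosts were higher and 5 lower, against 8.83% and 10.3% of all genes. DESeq2 also called 1 host lower and 0 higher, where it called 737 lower and 279 higher of all 32874 genes. The call of SNHG3 was lost without any one of the 4 samples (adjusted p = 0.0561 to 0.274).

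The 2 samples labelled shDrosha differed from each other. GAS5 was at 472 and 325 CPM, SNHG1 at 380 and 250 and SNHG29 at 633 and 458, against 280 and 329, 253 and 303, and 435 and 457 in wt. The first replicate was above both wt samples for all 3 genes. Without the second replicate GAS5 (0.63, adjusted p = 0.012), SNHG1 (0.45, adjusted p = 0.045), SNHG15 and SNHG29 were called higher. With both, GAS5 stood at 0.39 (adjusted p = 0.162), SNHG1 at 0.18 (0.585), ZFAS1 at 0.04 (0.899) and EPB41L4A-AS1 at -0.04 (0.916).

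The change in mRNA was then set against the change in chromatin RNA for shDicer, in one model of both assays. GAS5 and SNHG1 fell further in mRNA than in chromatin RNA, and SNHG7 and SNHG32 rose in mRNA relative to chromatin RNA. The difference of log2 fold changes, mRNA minus chromatin, was -0.65 ± 0.135 (adjusted p = 0.00417) for GAS5, -0.71 ± 0.129 (adjusted p = 0.00175) for SNHG1, 1.04 ± 0.178 (adjusted p = 0.00109) for SNHG7 and 2.14 ± 0.432 (adjusted p = 0.00355) for SNHG32. These are 2 lower and 2 higher of 28 (7.14% each), against 1.21% and 3.82% of 31106 genes. With a threshold of 0.05 they were 2 lower and 4 higher, against 3.69% and 9.25%. With the size factors of the RLE method the calls over all genes changed from 1189 higher and 375 lower to 654 and 579.

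SNHG32, the host of SNORD48 and SNORD52, was at 9.89, 4.98 and 5.22 CPM in mRNA wt and 21.8, 28 and 12.2 in mRNA shDicer, and at 12.8 and 12.6 in chromatin wt and 10.3 and 8.0 in chromatin shDicer. The mRNA samples of SNHG32 spread widely, and 22.3% of its 31-base words are shared with other genes. SNHG7 was at 124 and 116 CPM in chromatin wt and 114 and 103 in chromatin shDicer. None of the 4 calls held under every alternative: without wt replicate 1 of chromatin RNA the adjusted p became 0.0387 (GAS5), 0.0183 (SNHG1), 0.00502 (SNHG7) and 0.00858 (SNHG32), without shDicer replicate 2 of chromatin RNA 0.0138, 0.00604, 0.00548 and 0.0159, and without shDicer replicate 2 of mRNA 0.0127 (GAS5), 0.00512 (SNHG1) and 0.00702 (SNHG32). Leaving out wt replicate 1 or 2 of mRNA also cost GAS5 and SNHG1 their calls (adjusted p = 0.0079 to 0.0146), wt replicate 3 of mRNA those of GAS5 (0.0116) and SNHG32 (0.0129), wt replicate 2 of mRNA that of SNHG32 (0.013), and either remaining chromatin library that of SNHG32 (0.00743 and 0.00667). Doxycycline was given for 7 days in one assay and 72 hours in the other, so assay and time cannot be told apart.

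The snoRNA entries inside the hosts were followed in the same fits. In mRNA shDicer 7 of 23 tested entries were lower (30.4%) and 0 higher, where 19.5% of all 113 snoRNA genes tested were lower and 3.54% higher. With 1 library left out 3 to 6 entries were lower, and against the neighbourhood median 2 were. At an unadjusted p under 0.05, 15 of the 23 were lower and 0 higher, where 58.4% of all snoRNA genes were lower and 5.31% higher, and DESeq2 called 0 higher. The median log2 fold change was -0.72 for the entries in these hosts and -0.72 for all snoRNA genes.

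SNORA24, in SNHG8, was at 2.27, 2.31 and 2.15 CPM in mRNA wt and 0.71, 0.68 and 0.77 in shDicer (-1.62 ± 0.274, adjusted p = 0.000448). SNORD12B, in ZFAS1, was at 5.19, 4.98 and 5.42 CPM against 2.43, 1.59 and 1.25 (-1.58 ± 0.252, adjusted p = 0.000302). SNORA61, in SNHG12, was at 7.54, 5.51 and 4.91 CPM against 2.51, 1.74 and 2.21 (-1.48 ± 0.234, adjusted p = 0.000282). No sample overlapped for any of the 3. Against the neighbourhood median all 3 lost their calls (adjusted p = 0.00128 for SNORA24, 0.0015 for SNORD12B and 0.00621 for SNORA61). SNORA73A and SNORA73B lost theirs there too (0.00114 and 0.00123). SNORA24 also lost its call by DESeq2 (0.00545) and with a replicate block (0.0015). Under the length scaling from TPM, SNORA24 (0.00256) and SNORA61 (0.00138) were not called either. The call of SNORA24 was lost without any one of the 6 libraries (adjusted p = 0.00173 to 0.0040), that of SNORD12B without wt replicate 1, 2 or 3 or shDicer replicate 2 or 3 (0.00115 to 0.00375) and that of SNORA61 without wt replicate 1 or shDicer replicate 2 or 3 (0.00113 to 0.00375). ZFAS1 itself was at 63.7, 62.3 and 60.0 CPM in wt and 65.3, 71.1 and 74.2 in shDicer. The host was thus lower in no shDicer sample while SNORD12B was lower in all 3, a difference between both that was not tested. SNORA73A, the most abundant entry, was at 945, 818 and 971 CPM against 394, 496 and 501, beside a lower SNHG3. The remaining 3 lower entries were SNORA73B, SNORA71A and SNORA71D, and SNORA71D lost its call without wt replicate 1 (adjusted p = 0.00124). SNORA73A and SNORA73B, and the SNORA71 entries, are near-identical copies, so that the split of reads within each group is uncertain.

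In chromatin RNA 2 of 27 entries were lower in shDicer, SNORD99 in SNHG12 (-0.99 ± 0.175, adjusted p = 0.000828) and SNORA71B in SNHG17 (-0.71 ± 0.123, adjusted p = 0.000681). In shAgo2 6 were lower, led by SNORA71B (-1.20 ± 0.127, adjusted p = 1.41e-05), SNORD60 in SNHG19 (-1.18 ± 0.217, adjusted p = 0.000938) and SNORD99 (-0.82 ± 0.171, adjusted p = 0.00218), and 0 were higher in either line by edgeR or DESeq2. The unadjusted p was under 0.05 for 1 higher entry in each line. Among all 309 snoRNA genes tested 1.94% were lower and 6.15% higher in shDicer, and 8.09% lower and 3.88% higher in shAgo2. By DESeq2 the call of SNORD99 in shAgo2 was lost (adjusted p = 0.0148). Against the neighbourhood median SNORD99 lost its call in both lines, and SNORD60, SNORA71C, SNORA73A and SNORA73B lost theirs in shAgo2. With 1 library left out the entries numbered 0 to 2 lower in shDicer and 2 to 4 in shAgo2. SNORD99 lost its call in shDicer without wt replicate 1 or shDicer replicate 2 (adjusted p = 0.0141 and 0.00821) and SNORA71B without wt replicate 2 or shDicer replicate 2 (0.0102 and 0.00679). In shAgo2 SNORD99 lost it without wt replicate 1 or either shAgo2 replicate (0.0178 to 0.0319), SNORD60 without either wt replicate or shAgo2 replicate 2 (0.00520 to 0.0142), SNORA73A and SNORA73B without wt replicate 2 or either shAgo2 replicate (0.0178 to 0.0246) and SNORA71C without wt replicate 2 (0.00502). In the samples labelled shDrosha 2 entries were higher, SNORA61 (1.53 ± 0.338, adjusted p = 0.0316) and SNORA71A (0.52 ± 0.105, adjusted p = 0.0228), where 7.44% of all snoRNA genes were. SNORA61 lost its call without either wt replicate or shDrosha replicate 2 (adjusted p = 0.109 to 0.215) and SNORA71A without either wt replicate or shDrosha replicate 1 (0.0772 to 0.242). An exon of 3 of 15 SNHG8 transcripts, 1 of 14 ZFAS1 transcripts and 5 of 19 SNHG12 transcripts covers SNORA24, SNORD12B and SNORA61, so that reads of an entry and of its host RNA cannot be told apart.

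Several hosts share a start region with a gene on the other strand. SNHG22 starts 12 bases from ACAA2, a thiolase of fatty acid oxidation, which rose as SNHG22 did, by 0.81 in mRNA shDicer, 0.81 in chromatin shDicer and 0.62 in chromatin shAgo2 (log2, adjusted p = 6.12e-06, 0.000409 and 0.00256). SLC3A2, an amino acid transporter subunit 51 bases from SNHG1, was at -0.26 in mRNA shDicer (adjusted p = 0.0823) and fell by 0.85 and 0.90 in chromatin shDicer and shAgo2. RPS2, a ribosomal protein gene 54 bases from SNHG9, fell by 0.88 and 0.85, and TRAF7, a ubiquitin ligase gene 293 bases from SNHG19, fell by 0.86 and 0.84 in the same 2 comparisons. Neither passed in mRNA shDicer (-0.39 each, adjusted p = 0.00464 for RPS2 and 0.0289 for TRAF7). In chromatin RNA the neighbourhoods of SNHG22, SNHG19 and, in shAgo2, SNHG9 moved the same way, as given above. Whether a partner changed beyond its neighbourhood was not tested. ZBTB37 beside GAS5, ZNFX1 beside ZFAS1 and BARD1 beside SNHG31 were not called in any of the 4 knockdown comparisons.

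The proteins that make and remove host and snoRNA products were read as lists of genes in the same fits. The counts below stand against 14.2% of all genes lower and 15.6% higher in mRNA shDicer, 10.5% and 11.0% in chromatin shDicer, 12.1% and 12.5% in chromatin shAgo2, and 2.18% and 1.19% in the samples labelled shDrosha. Of 10 snoRNP assembly factors, which load core proteins onto nascent snoRNAs, 4 fell and 0 rose in mRNA shDicer (NUFIP1 -1.16, NAF1 -1.12 and SHQ1 -1.06), 7 fell and 0 rose in chromatin shDicer (PIH1D1 -0.73, NUFIP1 -0.72 and RUVBL2 -0.72), 7 fell and 0 rose in chromatin shAgo2 (RUVBL2 -0.84, PIH1D1 -0.71 and RUVBL1 -0.67), and RUVBL2 alone fell in the samples labelled shDrosha (-0.44). At an unadjusted p under 0.05 none rose in these 4 comparisons, where 32.1, 23.3, 24.7 and 8.83% of all genes did, in this order. The median log2 fold changes of these factors were -0.39, -0.54, -0.52 and 0.04, where the medians of all genes were 0.01, 0.01, 0.00 and 0.00.

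Of 8 core proteins of the snoRNP, GAR1, DKC1 and NOP58 fell in mRNA shDicer (-1.29, -0.77 and -0.48), chromatin shDicer (-1.07, -0.44 and -0.39) and chromatin shAgo2 (-1.04, -0.53 and -0.48). GAR1 and DKC1, which encodes dyskerin, belong to the H/ACA particle and NOP58 to the C/D particle. FBL (fibrillarin, 0.92) and SNU13 (0.55) rose in mRNA shDicer, and FBL fell in the samples labelled shDrosha (-0.57). The members of this list thus did not move one way.

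Of 10 factors of nonsense-mediated decay, 2 rose (UPF3A 1.27 and SMG9 1.27) and 4 fell (led by SMG1 -0.88, UPF3B -0.78 and SMG5 -0.68) in mRNA shDicer. In chromatin RNA 1 rose (SMG9 0.44) and 3 fell (UPF3B -0.51, SMG1 -0.45 and SMG5 -0.42) in shDicer, 0 rose and 4 fell (led by SMG5 -0.69, UPF1 -0.49 and SMG1 -0.43) in shAgo2, and UPF1 fell (-0.56) in the samples labelled shDrosha.

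Of 33 protein-coding genes that host snoRNAs, mostly of ribosomal proteins and translation factors, 5 rose and 8 fell in mRNA shDicer. EEF2 (1.22), RPL17 (0.96) and RPL7A (0.78) led the first, and EIF4G2 (-1.17), RPL21 (-0.61) and RPS20 (-0.58) the second. In chromatin shDicer 1 rose (RPL17 0.54) and 11 fell, led by RPL12 (-1.08), HSPA8 (-0.94) and RPS3 (-0.68). In chromatin shAgo2 0 rose and 12 fell, led by HSPA8 (-1.22), RPS13 (-0.84) and RPL12 (-0.79), and in the samples labelled shDrosha 4 fell, led by EEF2 (-0.96), EIF4A1 (-0.62) and RPL10 (-0.52), and 0 rose. The share that fell was 24.2% in mRNA shDicer, 33.3% in chromatin shDicer and 36.4% in chromatin shAgo2, beside 21.4, 21.4 and 28.6% of the SNHG group and 15.3, 16.9 and 18.7% of all protein-coding genes.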

How the data were processed

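RNA was measured in 14 samples with a table of transcript abundance. The deposited tables hold expected counts (estimated counts) and TPM per transcript, which the authors made with kallisto in stranded mode on human Ensembl cDNA and non-coding RNA sequences (hg38). The submitters' notes also name Bowtie, TopHat2 and DESeq2. The mRNA samples are labelled as polyA RNA, while their kit and the study's methods state ribosomal depletion.

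Version suffixes of transcript names were dropped, transcripts were assigned to genes with GENCODE 44 (89.2% of 217082 matched, with 93.4 to 94.8% of the counts of a sample), and estimated counts were summed per gene and rounded. Genes passing filterByExpr were fitted with edgeR 4.0.16 (R 4.3.3, TMM, quasi-likelihood test, Benjamini-Hochberg over all genes tested): 15090 genes in mRNA, 32874 in chromatin RNA in 1 fit of 8 samples, 28050 in chromatin RNA against mRNA and 31106 in the difference of shDicer effects. Calls used the study's limits of adjusted p, 0.001 in mRNA, 0.005 in chromatin shDicer and shAgo2 and 0.05 in the samples labelled shDrosha, and 0.005 elsewhere. CPM were scaled by TMM within each assay. Deposited TPM were summed per gene. Retained-intron shares used the transcript types of GENCODE and an exact two-sided permutation test. snoRNA entries lie within a host on its strand. The neighbourhood of a gene is the median log2 fold change of the 50 nearest tested genes. Shared 31-base words were counted over the annotated transcripts. The fits were tested on simulated data.

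The members, lists and tests were chosen with earlier results of these data known. Named were GAS5, ZFAS1, EPB41L4A-AS1 and SNHG1 always, up to 6 called hosts per direction and comparison, the 5 highest and 5 lowest hosts by TPM, up to 3 called genes per direction of each list, and partners starting within 1000 bases on the other strand; other hosts were named after their values were seen. Alternatives were DESeq2 1.42.0, RLE size factors, no filter on low counts, counts scaled from TPM by length, another threshold, a replicate block, only the 2 groups compared, the neighbourhood median as offset and each replicate left out.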

Additional observations from a re-analysis of the deposited data

Results flagged for a closer look

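The change in shDicer against wt differed between mRNA and chromatin RNA for 4 host genes and 1 intronic snoRNA, by the interaction term of the edgeR model over both assays. The difference of log2 fold changes, mRNA minus chromatin RNA, was -0.654 for GAS5, -0.705 for SNHG1, 1.04 for SNHG7, 2.14 for SNHG32 and -1.09 for SNORA71A, an H/ACA snoRNA in SNHG17 with near-identical copies. Adjusted p-values were 0.00417, 0.00175, 0.00109, 0.00355 and 0.00054. None of the 4 host calls held under every alternative, and SNORA71A lost its call without the filter on low counts (-1.09, adjusted p = 0.00629). The groups hold 2 or 3 samples, too few to test single samples as outliers.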

How the results depend on the processing

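The 4 calls that held in mRNA shDicer under every alternative were GAS5, SNHG1, SNHG3 and SNHG8. In chromatin RNA they were SNHG3, SNHG17 and SNHG22 in shDicer, and SNHG3, SNHG8, SNHG17 and SNHG26 in shAgo2. The cause of the changes below was not tested. With a threshold of 0.05, 6 hosts were higher and 10 lower in mRNA shDicer, 12 lower in chromatin shDicer, 2 higher in shAgo2 and 4 higher in the difference of shDicer effects, and snoRNA entries numbered 12 lower in mRNA shDicer, 1 higher and 5 lower in chromatin shDicer and 1 higher in shAgo2. With 0.005, 0 hosts were lower and 0 entries higher in the samples labelled shDrosha. Without the filter on low counts, hosts numbered 5 higher in mRNA shDicer, 3 lower in shDrosha and 0 higher and 0 lower in the difference, and entries 11 lower in mRNA shDicer and 5 higher in shDrosha. With counts scaled from TPM by length, hosts numbered 0 lower in shDrosha and 1 higher and 0 lower in the difference, and entries 1 lower in chromatin shDicer and 0 higher in shDrosha. SNHG3 turned to -1.67 in chromatin RNA against mRNA and EPB41L4A-AS1 to 0.38 in mRNA shDicer. With the neighbourhood median as offset, hosts numbered 1 higher in mRNA shDicer, 0 higher and 5 lower in shAgo2 and 3 lower in shDrosha, entries 2 lower in mRNA shDicer, 1 lower in chromatin shDicer and 2 lower in shAgo2, and SNHG7 turned to 0.053 in shAgo2. Fitting only the 2 groups compared gave 2 hosts higher in shAgo2 and 0 lower in shDrosha. DESeq2 gave 4 hosts lower in the difference, where EPB41L4A-AS1 turned to -0.071, as with RLE size factors (-0.070).

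Scaling chromatin RNA against mRNA by library size alone, chosen after the data were seen, gave 17 hosts higher and 6 lower and turned SNHG20 to 1.34, ZFAS1 to 0.93, SNHG32 to 0.87, SNHG15 to 0.70, SNHG30 to 0.70, SNHG9 to 0.39, SNHG29 to 0.25, EPB41L4A-AS1 to 0.23 and SNHG10 to 0.23.

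With each replicate left out in turn, hosts numbered 0 to 3 higher and 5 to 6 lower in mRNA shDicer, 1 higher and 3 to 4 lower in chromatin shDicer, 0 to 1 higher and 5 to 6 lower in shAgo2, 0 to 4 higher and 0 lower in shDrosha, 7 higher and 14 to 18 lower in chromatin RNA against mRNA, and 0 to 2 higher and 0 to 2 lower in the difference. The entries, followed in the alternatives after the data were seen, numbered 3 to 6 lower in mRNA shDicer, 0 to 2 lower in chromatin shDicer, 2 to 4 lower in shAgo2 and 0 to 5 higher in shDrosha. Retained-intron shares lay above mRNA wt in 6 hosts and below in 3 in chromatin wt throughout, and in mRNA shDicer above wt in 0 to 1 and below in 6 to 7. Signs turned over this range for the log2 changes of EPB41L4A-AS1 in shAgo2 (-0.13 to 0.016), in shDrosha (-0.28 to 0.17) and in the difference (-0.053 to 0.20), of SNHG1 (-0.15 to 0.45) and ZFAS1 (-0.18 to 0.23) in shDrosha, none of them called with all samples, and for the change in the retained-intron share of SNHG12 (-2.01 to 0.62 points) and SNHG17 (-0.14 to 1.01 points) in mRNA shDicer. A fit that leaves 1 sample in a group assumes that it varies like the other groups.

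Whether replicate numbers pair the samples is not stated. In mRNA, deviations of same-numbered samples correlated weakly, by 0.05 to 0.08, and those of other pairs by -0.09 to 0.02. Each mRNA sample correlated best with its own number. In chromatin RNA same-numbered samples correlated by -0.13 to 0.03, where 2 samples a group make the values of other pairs a mirror image. A replicate block gave 0 hosts lower and 0 entries higher in shDrosha and moved no other of these counts by more than 1.5 times. With 2 or 3 samples a group and no counts above 6 for 3 of the hosts, small changes and these hosts were beyond what the depth could show.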
